A study of Mus musculus with 15 samples.

Results

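The Zic genes of the mouse encode zinc finger transcription factors related to the Gli factors, which carry out the response to hedgehog signals. The 4 genes described here were Zic1, Zic2, Zic4 and Zic5, out of 18193 genes named on the array, and they were measured by 8 of its 45101 probe sets. They were chosen from the KO maxillary signals of these same arrays, because several of them were high there. Their values in that comparison are therefore given as a description without a test.

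Zic factors bind DNA through a run of zinc fingers that resembles that of the Gli factors, and they can act with or against Gli proteins on shared targets. They are best known from the dorsal neural tube, the forebrain and the somites, and from the border of the neural plate where neural crest cells arise. The genes lie in head-to-head pairs, and in humans loss of ZIC2 is a cause of holoprosencephaly, while deletions of ZIC1 and ZIC4 together have been linked to Dandy-Walker malformation.

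The study measured RNA of the first branchial arch, the paired swelling that forms the jaws, on 15 Affymetrix mouse arrays of mouse embryos at E10.5 (embryonic day). The 5 groups of 3 arrays were the KO maxillary branch (labelled KO_MXA), WT (wild-type) maxillary branch set 2 (WT_MXA2), the Dlx5/6 mutant mandibular branch (5_6_MNA), the WT mandibular branch (WT_MNA) and WT maxillary branch set 1 (WT_MXA). The upper jaw derives from the maxillary branch and the lower jaw from the mandibular branch. The titles did not name the gene lost in the KO arrays, and a description shared by all arrays listed dlx2, dlx1/2 and Dlx5/6 mutants as planned tissue. Strain, the nature of the alleles and the difference between the WT maxillary sets were not given in the labels. The plan foresaw pooled arches. Since the labels do not tell whether each array had its own embryos, p values measured only the spread between these arrays, which may be technical.

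The homeobox gene Dlx2 averaged 3.36 ± 0.180 signal units on KO maxillary arrays and 422 ± 20.1 on WT maxillary set 2 arrays (SD, n = 3 each, here and below for signals). Dlx1 averaged 209 ± 11.7 on KO maxillary arrays and 711 ± 30.8 on WT maxillary set 2 arrays. The Dlx5 signal was 10.9 ± 2.97 in the Dlx5/6 mutant mandibular branch and 727 ± 40.5 in the WT mandibular branch. The bacterial spike-in dap read 2564 to 2821 on the KO maxillary and WT maxillary set 2 arrays and 287.0 to 339.7 on the other 9 arrays, which separated the arrays into a pair of array sets. KO maxillary arrays were therefore set against WT maxillary set 2, which shared their array set. Of 10 arch mesenchyme markers, all had a probe set, and 2 (Dlx2 and Alx4) lay below the array median on all 3 KO maxillary arrays, against 0 on WT maxillary set 2. Alx4 also lay below it on all arrays of the Dlx5/6 mutant mandibular branch, the WT mandibular branch and WT maxillary set 1.

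Zic1 and Zic4 stand side by side on chromosome 9, and Zic5 and Zic2 on chromosome 14, in the RefSeq genes of build GRCm38.p6. The starts of Zic1 and Zic4 were 3204 bases apart on opposite strands. The 250 bases before the RefSeq start are shown on the strand of the gene for 3 of the 4 genes, since the promoter source had no entry for Zic2. Zic1 and Zic5, like Zic2, had high KO maxillary signals, while Zic4, the partner of Zic1, did not. Capitals mark each C followed by G, the base pair step that is dense in CpG islands. The Zic1 window is chr9:91365769-91366018 on the minus strand, the Zic4 window chr9:91368722-91368971 on the plus strand and the Zic5 window chr14:122465659-122465908 on the minus strand.
Zic1: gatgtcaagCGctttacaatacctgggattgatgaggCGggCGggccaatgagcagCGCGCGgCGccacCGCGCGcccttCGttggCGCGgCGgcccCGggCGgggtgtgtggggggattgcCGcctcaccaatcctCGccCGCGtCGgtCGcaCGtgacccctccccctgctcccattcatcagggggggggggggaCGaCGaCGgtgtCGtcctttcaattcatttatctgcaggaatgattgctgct
Zic4: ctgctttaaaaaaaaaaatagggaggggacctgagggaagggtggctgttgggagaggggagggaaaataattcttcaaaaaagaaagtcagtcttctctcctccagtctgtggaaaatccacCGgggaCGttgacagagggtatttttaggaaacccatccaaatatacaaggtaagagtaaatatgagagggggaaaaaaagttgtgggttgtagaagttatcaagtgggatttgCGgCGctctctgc
Zic5: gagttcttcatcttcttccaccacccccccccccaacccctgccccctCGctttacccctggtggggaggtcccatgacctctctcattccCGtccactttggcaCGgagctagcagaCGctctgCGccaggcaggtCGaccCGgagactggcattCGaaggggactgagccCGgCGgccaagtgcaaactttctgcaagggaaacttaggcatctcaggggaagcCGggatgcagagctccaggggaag

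The Zic1 window held 27 CG pairs and was 66.0% G or C. The Zic5 window held 11 CG pairs at 62.4% G or C, and the Zic4 window 4 CG pairs at 44.4%. Across 32851 RefSeq promoter windows of this length the medians were 6 CG pairs and 52.4% G or C, and Zic1 had more CG pairs than 91.4% of them. The windows were searched on both strands for TAATTA, a core that homeodomain proteins such as Dlx factors can bind, and for the promoter elements GGGCGG (GC box) and CCAAT. The homeodomain core was found in none of the 3 windows and in 4.84% of all windows. GGGCGG was found at 2 places in the Zic1 window and in 32.7% of all windows, and CCAAT at 2 places in the Zic1 window and in 33.8% of all windows. Neither of these was found in the Zic4 or Zic5 window, and the matches in Zic1 did not overlap each other.

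Signals are linear Affymetrix intensity values as deposited, and levels are compared only within a probe set. Array medians lay between 26.6 and 33.4 signal units and the 75th percentiles between 140.7 and 146.9. Outside the KO maxillary branch, all 8 Zic probe sets were below the median of the array on each of the 12 arrays.

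Zic5, which in the mouse is needed for neural tube closure and neural crest development, was measured by 3 probe sets. Its probe set 1456219_at read 100.2, 108.6 and 118.2 on the KO maxillary arrays and 18.2, 29.5 and 15.3 on the WT maxillary set 2 arrays. It read 19.1, 19.5 and 2.08 in the Dlx5/6 mutant mandibular branch, 11.0, 8.11 and 12.4 in the WT mandibular branch, and 19.6, 22.4 and 27.1 in WT maxillary set 1. The 3 KO maxillary arrays were high and the 12 others low, with a gap between them, and the lowest KO maxillary signal was 3.39 times the highest of the others. The KO maxillary signals lay at the 69.7th to 72.2nd percentile of their arrays, so the probe set was of middle brightness there.

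A second Zic5 probe set, 1456140_at, read 83.8, 79.6 and 70.5 on the KO maxillary arrays and 13.4, 12.9 and 16.6 on the WT maxillary set 2 arrays. It averaged 11.6 ± 1.41 in the Dlx5/6 mutant mandibular branch, 10.8 ± 5.50 in the WT mandibular branch and 11.7 ± 7.32 in WT maxillary set 1. Here too the KO maxillary arrays stood above all others, and the other 4 groups overlapped. The third, 1425666_at, was the dimmest, with 41.3, 36.3 and 29.9 on KO maxillary arrays and 8.11, 2.33 and 14.2 on WT maxillary set 2 arrays. Its highest signal on the other 9 arrays was 16.6, on WT maxillary set 1 replicate 1, so the KO maxillary arrays did not overlap with any other group.

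On the log2(signal + 32) scale used for all differences, Zic5 was higher in KO maxillary than in WT maxillary set 2 by 1.41 ± 0.17 (1456219_at), 1.22 ± 0.16 (1456140_at) and 0.70 ± 0.19 (1425666_at), where ± is the SE of a limma model. Against WT maxillary set 1, in the other array set, the same differences were 1.35, 1.32 and 0.76. Adding 32 shrinks the changes of dim probe sets, so these differences understate the ratio of the signals. All 3 Zic5 probe sets thus pointed the same way by sizes that differed with brightness. In RNA of whole tissue, more cells with Zic RNA and more Zic RNA per cell cannot be told apart.

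Zic2, a factor of the early forebrain and the neural plate, had 1 probe set, 1421301_at. It read 56.3, 56.5 and 41.5 on the KO maxillary arrays and 1.96, 16.0 and 4.36 on the WT maxillary set 2 arrays. It read 15.7, 15.2 and 2.90 in the Dlx5/6 mutant mandibular branch, 0.798, 1.77 and 5.65 in the WT mandibular branch, and 5.35, 8.58 and 19.9 in WT maxillary set 1. The KO maxillary arrays did not overlap with any other group, and their lowest signal was 2.08 times the highest of the other 12 arrays. The other 4 groups overlapped, and their means ran from 2.74 ± 2.57 in the WT mandibular branch to 11.3 ± 7.66 in WT maxillary set 1. The difference between KO maxillary and WT maxillary set 2 was 1.05 ± 0.19, and against WT maxillary set 1 it was 0.92.

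Zic1, a factor of the dorsal neural tube and the cerebellum, differed between its 2 probe sets. Probe set 1423477_at read 53.1, 26.0 and 39.4 on the KO maxillary arrays and 0.936, 1.09 and 9.59 on the WT maxillary set 2 arrays. It read 7.69, 15.4 and 4.23 in the Dlx5/6 mutant mandibular branch, 0.825, 9.68 and 0.946 in the WT mandibular branch, and 6.12, 4.33 and 10.8 in WT maxillary set 1. The KO maxillary arrays again lay above all others, but their range was wide and replicate 2 was below the median of its array. The difference between KO maxillary and WT maxillary set 2 was 0.93 ± 0.19, and against WT maxillary set 1 it was 0.81. The other Zic1 probe set, 1439627_at, read 7.11, 6.62 and 0.675 on KO maxillary arrays and 0.266, 0.290 and 3.56 on WT maxillary set 2 arrays. Its highest signal of all was 12.7, on a WT maxillary set 1 array, and its KO maxillary signals overlapped with all other groups.

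Zic4, the neighbour of Zic1, was dim in every group. Its probe set 1421539_at read 1.01, 1.06 and 1.85 on the KO maxillary arrays and 1.06, 6.34 and 0.773 on the WT maxillary set 2 arrays. Its highest signal was 15.1, in the Dlx5/6 mutant mandibular branch, and KO maxillary had the lowest mean, 1.31 ± 0.472. Probe set 1456417_at read 21.7, 4.89 and 19.6 on KO maxillary arrays and 1.21, 17.4 and 7.20 on WT maxillary set 2 arrays. The highest and the second highest of its 15 signals were KO maxillary arrays, but the remaining KO maxillary array lay among the others. The differences between KO maxillary and WT maxillary set 2 were -0.07 and 0.20 for the Zic4 probe sets and 0.13 for the second Zic1 probe set.

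**Figure D1:**
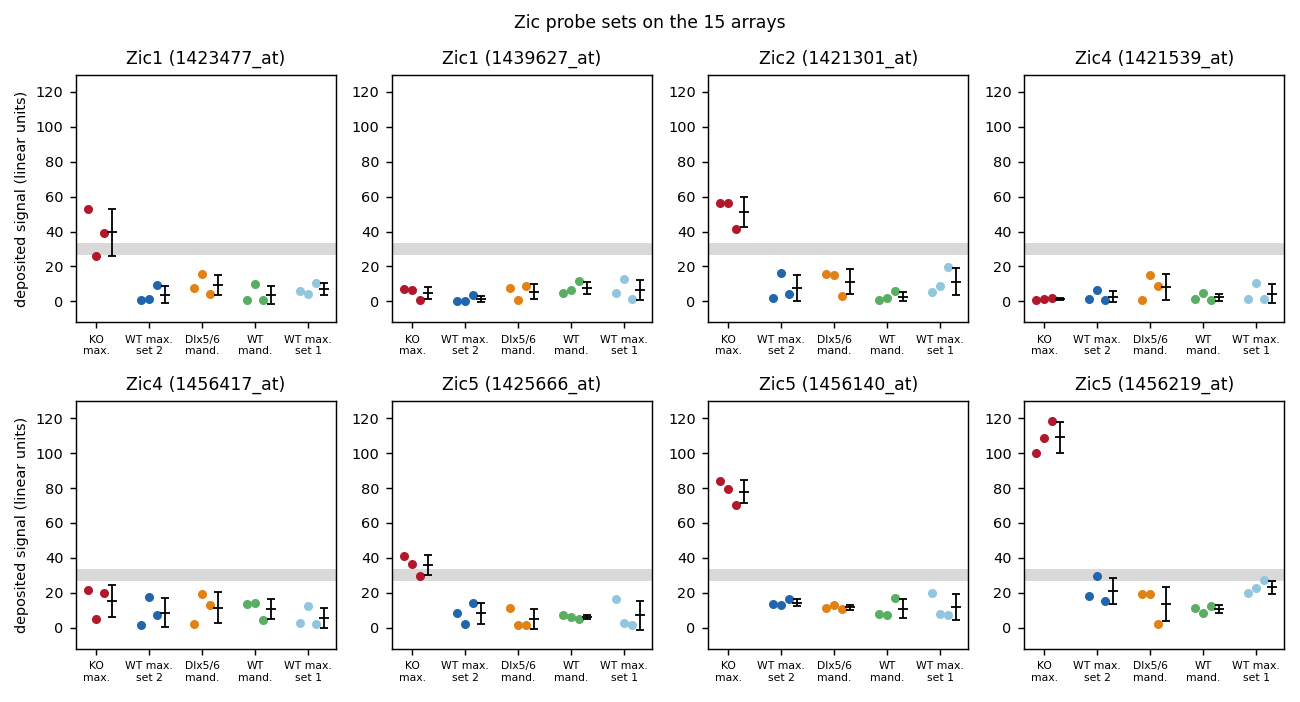
Deposited signal (linear units, vertical axis) of the 8 Zic probe sets on the 15 arrays, with KO maxillary at the left of each panel, then WT maxillary set 2, Dlx5/6 mutant mandibular, WT mandibular and WT maxillary set 1. Points are arrays, the black bar is the mean with its SD (n = 3), and the grey band is the range of the array medians (26.6 to 33.4). In 5 panels all KO maxillary points lie above the other 12, and in both Zic4 panels and 1 Zic1 panel the groups overlap.

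In 5 of the 8 probe sets all 3 KO maxillary arrays lay above all 12 other arrays, against 1.61% of all probe sets on the array. The choice of the genes used this contrast, so nothing is read from the share. Of the 8, 5 passed the filter for testing, which asked for a signal above the 40th percentile of the array on at least 3 arrays. Zic1 1423477_at and Zic5 1425666_at passed through the KO maxillary arrays alone, with 0 other arrays over that percentile. Zic2 and Zic5 1456140_at had 1 other array over it and Zic5 1456219_at had 7. The second Zic1 probe set and both Zic4 probe sets did not pass.

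The mandibular arrays, which the choice of genes did not use, were compared for Zic RNA when Dlx5/6 was lost in the lower jaw branch. In the Dlx5/6 mutant mandibular branch against the WT mandibular branch, 0 of the 5 Zic probe sets passed limma's test at an adjusted p under 0.05, against 2.66% of the 31643 probe sets tested. None had an unadjusted p under 0.05 either. All but Zic5 1456219_at would have failed the filter without the KO maxillary arrays. In the groups compared here all 5 lay below the array median on every array. Nothing is therefore read from the count, here or in the comparisons with WT maxillary set 1, and the values are a description. The differences ran from -0.07 for Zic5 1425666_at to 0.31 for Zic2, and the 95% intervals together spanned -0.46 to 0.70. The lowest adjusted p (limma) was that of Zic2, 0.528, with an interval of -0.08 to 0.70. Zic2 averaged 11.2 ± 7.23 in the Dlx5/6 mutant mandibular branch and 2.74 ± 2.57 in the WT mandibular branch, and 2 of the 3 mutant arrays lay above all 3 WT arrays. Zic5 1456140_at had the narrowest interval of the 5, from -0.32 to 0.35 around a difference of 0.02. These intervals do not show that the groups were alike.

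The WT branches were compared within 1 array set, with the limit that WT maxillary set 1 may have entered the choice of the genes. In the WT mandibular branch against WT maxillary set 1, 0 of the 5 probe sets passed the test, against 2.64% of all. The largest difference in size was that of Zic5 1456219_at, -0.33, with an interval of -0.68 to 0.02 and an adjusted p of 0.460 in limma. That probe set read 8.11 to 12.4 on the WT mandibular arrays and 19.6 to 27.1 on the WT maxillary set 1 arrays. How often groups of 3 arrays separate in this way over all probe sets was not counted, so nothing is read from it. The Zic2 difference was -0.29 (adjusted p = 0.616, limma), and here the groups overlapped at 5.65 and 5.35. Zic1 1423477_at differed by -0.10 and the remaining Zic5 probe sets by 0.01 and 0.00.

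In the Dlx5/6 mutant mandibular branch against WT maxillary set 1, again 0 of the 5 passed, against 0.594% of all. The differences ran from -0.28 for Zic5 1456219_at to 0.08 for Zic1 1423477_at, and the lowest adjusted p in limma was 0.713. WT maxillary set 2 and set 1 lay in different array sets, so group and array set cannot be told apart there. The 5 probe sets differed between them by -0.13 to 0.10. KO maxillary had the highest group mean for all 5, a place that the choice of the genes fixed.

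**Figure D2:**
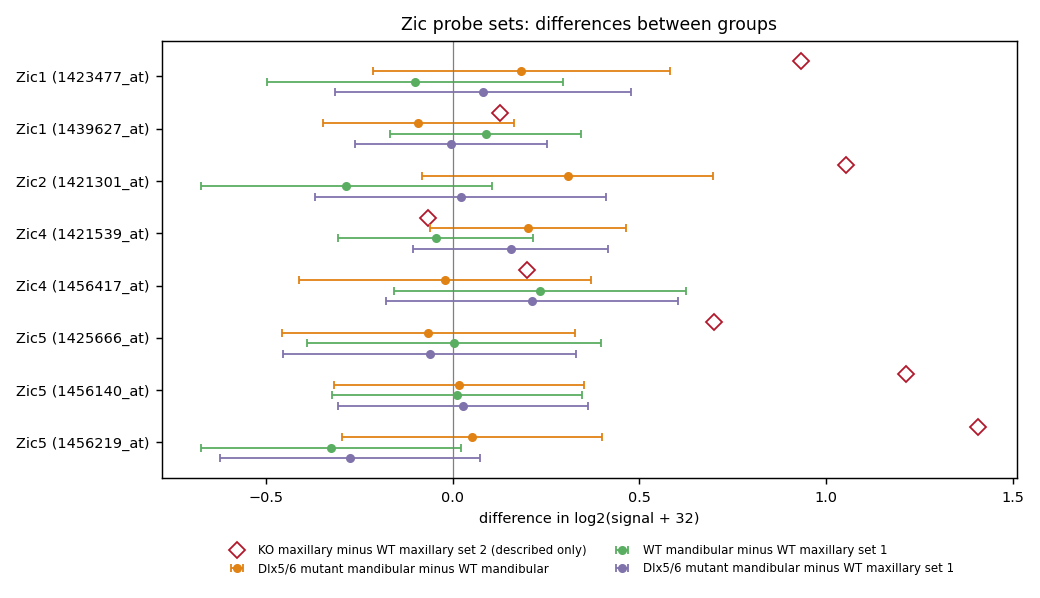
Differences in log2(signal + 32) (horizontal axis) for the 8 Zic probe sets. Open diamonds give KO maxillary minus WT maxillary set 2 as a description, and filled points give the other 3 comparisons with 95% intervals from limma. The diamonds of 5 probe sets lie between 0.70 and 1.41, while all intervals of the filled points include 0.

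The genes beside the Zic pairs were examined in the same comparison. The nearest 3 named genes and the nearest 3 protein-coding genes on each side, with any gene between the pair, came to 23 genes, of which 11 had a probe set. The protein-coding genes were added after it was seen that most of the nearest genes were non-coding and had no probe set. Of their 17 probe sets 12 passed the filter, and 0 of these passed the test in KO maxillary against WT maxillary set 2, where 0.913% of all probe sets did. A count of 0 is thus near the background and is no result about these neighbours. Their differences ran from -0.31 to 0.31, with 1 unadjusted p under 0.05 and a lowest adjusted p of 0.449 (limma). The closest measured neighbour was 2610035F20Rik, a non-coding RNA gene that lies between Zic5 and Zic2. It averaged 9.96 ± 8.59 on KO maxillary arrays and 3.35 ± 4.04 on WT maxillary set 2 arrays, did not pass the filter and differed by 0.20. Clybl, an enzyme gene on the Zic5 side, averaged 90.0 ± 15.6 and 89.1 ± 6.41 in KO maxillary and WT maxillary set 2. In the Dlx5/6 mutant mandibular branch against the WT mandibular branch, 0 of the 12 passed the test as well, against 2.66% of all, with 1 unadjusted p under 0.05 and a lowest adjusted p of 0.292 (limma).

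**Figure D3:**
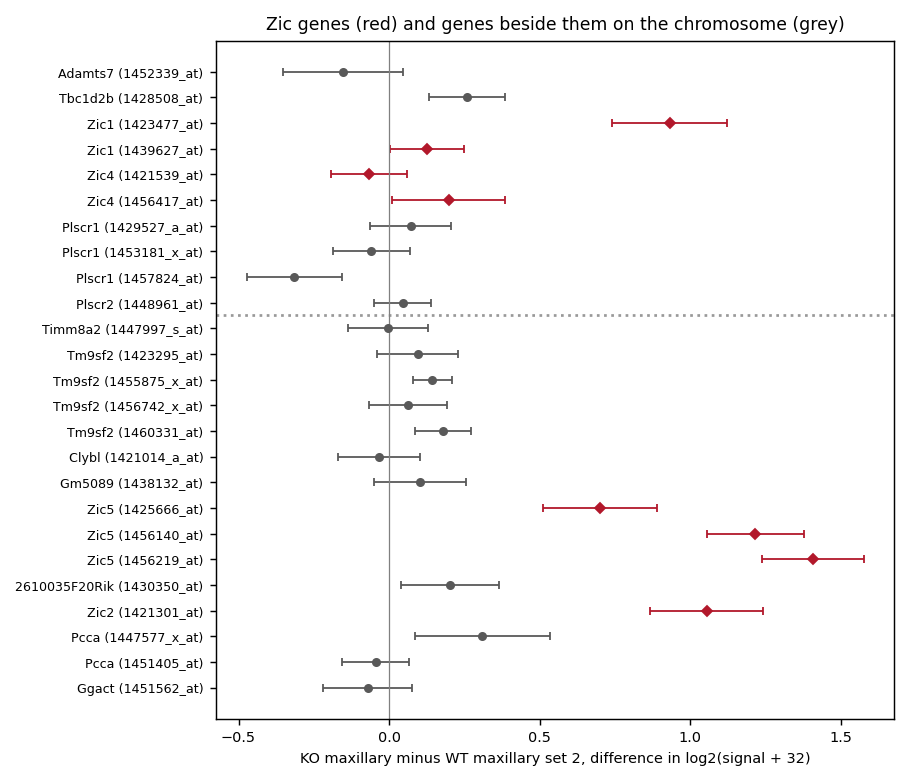
KO maxillary minus WT maxillary set 2 in log2(signal + 32) (horizontal axis) for the Zic probe sets (red diamonds) and for genes beside them (grey points), in RefSeq order down the page, with the Zic1 and Zic4 region above the dotted line and the Zic5 and Zic2 region below it. Bars are the SE. The neighbours lie between -0.31 and 0.31, and the high values are those of Zic1, Zic5 and Zic2 probe sets. The Zic genes were chosen on this contrast and the neighbours were not, so nothing is read from that gap. The second Zic1 probe set and both Zic4 probe sets lie within the range of the neighbours.

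The genes whose pattern over the 15 arrays was most like that of a Zic gene were found by the mean absolute difference of log2 values after each gene was centred on its own mean, on the brightest probe set of each of 13933 other genes. This was done for Zic genes whose group means spanned at least 1 on the log2 scale, which held for Zic5 and Zic2 and not for Zic1 (0.93). The gene most like Zic5 was Zic2 at 0.201, followed by Pou3f4 at 0.210 and Itga4 at 0.260, where a flat profile would be at 0.486. Those most like Zic2 were Vstm2b at 0.161, Dach2 at 0.180 and Zic1 at 0.192, where a flat profile would be at 0.376. The ranking rests largely on the KO maxillary arrays, which set the span of all these genes. The Zic genes were chosen because several were high there, so nothing is read from their likeness to each other.

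Pou3f4, a POU domain transcription factor, averaged 202 ± 51.8 on KO maxillary arrays and 40.5 ± 5.59 on WT maxillary set 2 arrays. Its second probe set differed by 1.69 between those groups, in the same direction. Itga4, an integrin subunit, averaged 178 ± 11.5 on KO maxillary arrays and 80.6 ± 9.20 on WT maxillary set 2 arrays. Its other probe sets differed by -0.19 to 1.05, so they did not all show it. Dach2, a nuclear cofactor, averaged 161 ± 28.1 on KO maxillary and 84.1 ± 4.58 on WT maxillary set 2 arrays, while Vstm2b averaged 121 ± 18.5 and 68.9 ± 3.20 in the same groups. Second probe sets of Dach2 (0.24) and Vstm2b (-0.02 and 0.03, below the filter) had smaller differences.

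**Figure D4:**
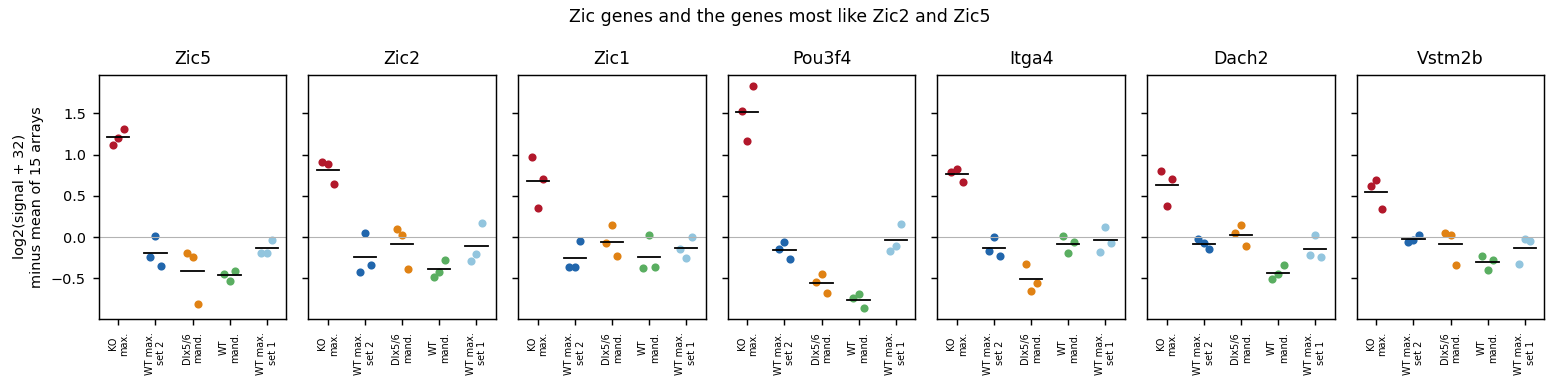
Log2(signal + 32) minus the mean of the 15 arrays (vertical axis) for Zic5, Zic2, Zic1 and the genes most like Zic5 or Zic2, by group, with KO maxillary at the left. Points are arrays and bars are group means (n = 3). In each panel the KO maxillary points lie above all other points, and outside KO maxillary the genes differ, with Pou3f4 lowest in the mandibular groups and Itga4 lowest in the Dlx5/6 mutant mandibular branch.

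The hedgehog pathway is where Zic and Gli factors are known to meet. Of 13 of its genes measured, 1 was higher and 2 were lower in KO maxillary than in WT maxillary set 2 at an adjusted p under 0.05 in limma, with a median of -0.06. Over all 13934 genes 0.682% were higher and 0.617% lower, and the median was -0.002. Ptch1, the hedgehog receptor and a target of the pathway, was higher by 0.33 ± 0.06 (adjusted p = 0.00719), but not without KO maxillary replicate 1 (adjusted p = 0.0565) or with arrays shifted to a common median, and its other probe sets at 0.26 and 0.19 did not pass. Gas1, a coreceptor, was lower at -0.64 ± 0.10 (adjusted p = 0.00159, limma), and so was another of its probe sets at -0.53, while one at -0.32 did not pass. Cdon, also a coreceptor, was lower at -0.50 ± 0.10 (adjusted p = 0.00847, limma), a call lost without KO maxillary replicate 1 or 2 (highest adjusted p 0.0546). The calls of Ptch1, Gas1 and Cdon were also lost in a limma fit without intensity trend. Gli1, a direct target, differed by 0.36 (adjusted p = 0.422, limma), Gli2 by -0.02 and Gli3 by -0.20, and none of these passed. In the Dlx5/6 mutant mandibular branch against the WT mandibular branch 0 of the 13 passed, while 1.64% of all genes were higher and 1.6% lower.

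Among 8 measured genes that have been linked to Zic factors in earlier work, 0 were higher and 1 was lower in KO maxillary than in WT maxillary set 2, with a median of -0.31, while 0.682% of all genes were higher and 0.617% lower. That was Snai2, a transcriptional repressor active in neural crest cells, at -0.36 ± 0.06 (adjusted p = 0.00303, limma). Its other probe set was lower too at -0.60. The Snai2 call was lost without intensity trend. Pax3 differed by -0.53 (adjusted p = 0.0835, limma), Foxd3 by -0.53 and Myf5 by 0.43 without passing. In the Dlx5/6 mutant mandibular branch 1 of the 8, the muscle factor Myf5, was lower than in the WT mandibular branch, at -0.92 ± 0.16 (adjusted p = 0.00113, limma), while 1.6% of all genes were lower.

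Markers of tissues in which Zic genes are known to be active were read beside the Zic signals, with the shares of all genes just given as background for each count. Dorsal neural tube markers were not called in either direction in KO maxillary (0 of 6 measured). The summed signal of the 9 with a probe set was 186 to 239 on KO maxillary and 272 to 301 on WT maxillary set 2 arrays, and Lmx1a, Wnt1, Wnt3a, Pax7 and Olig3 lay below the array median on all arrays of both groups. Of 7 forebrain and eye markers 1 was higher (Lhx2, 0.74 ± 0.13, adjusted p = 0.00395 in limma) and 1 lower (Emx2, -1.41 ± 0.15, adjusted p = 6.66e-06 in limma), and Six6, Rax, Pax6, Otx2 and Sox1 were below the array median in both groups. Their sums ran from 655 to 734 on KO maxillary and from 607 to 654 on WT maxillary set 2 arrays. Of 7 somite and muscle markers 0 were called, with sums of 193 to 273 and 152 to 211 in the same groups.

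Of 9 periocular and frontonasal mesenchyme markers 3 were higher and 0 lower, with a median of 0.30, against 0.682% and 0.617% of all genes. Foxc1 was higher by 0.78 ± 0.09 (adjusted p = 2.61e-05, limma) and Tgfbi by 0.76 ± 0.06 (adjusted p = 2.06e-07, limma), each on all of its probe sets. Alx1 was higher by 0.37 ± 0.08 (adjusted p = 0.0220, limma), a call lost when any 1 of KO maxillary replicates 1 and 3 and WT maxillary set 2 replicates 1 and 2 was left out (highest adjusted p 0.110), with arrays shifted to a common median and without intensity trend. Its other probe set, at 0.39, did not pass. The summed signal of these markers was 3456 to 3540 on KO maxillary and 2224 to 2557 on WT maxillary set 2 arrays, and Pax7 was below the array median in both. In the Dlx5/6 mutant mandibular branch 2 of the 9, Alx1 (0.99) and Six2 (0.91), were higher than in the WT mandibular branch, against 1.64% of all genes. The sums there were 2028 to 2277 in the mutant and 1705 to 1797 in the WT mandibular branch.

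Macrophage markers were higher for 1 of 10 (Csf1r, 0.59 ± 0.09, adjusted p = 0.00106 in limma, not on its other probe sets), with sums of 799 to 886 on KO maxillary and 546 to 603 on WT maxillary set 2 arrays. Of 11 sensory neuron and glia markers 3 were lower (Nefm at -0.74, Nefl at -0.72 and Neurog1 at -0.78), with sums of 1076 to 1122 and 1356 to 1438 in those groups. The median of the 11 was -0.40. These markers differed more between the WT maxillary groups, which lay in different array sets. In set 2 against set 1, 10 of the 11 were lower, against 5.08% of all genes, with a median of -1.17. Of 6 lens and olfactory placode markers 1, Eya1, was higher in KO maxillary (0.37). The sums were 1635 to 1812 on KO maxillary and 1303 to 1344 on WT maxillary set 2 arrays. Foxe3, Cryaa, Cryba1, Prox1 and Sp8 lay below the array median on all arrays of both groups. Of the other Ebf2 probe sets, the one at 0.59 passed (adjusted p = 0.0060, limma) and the one at 0.41 did not. Among the 10 arch mesenchyme markers 1 was higher (Tfap2a, 0.62) and 4 were lower (Dlx2, Dlx1, Msx2 and Prrx1), with sums of 7880 to 8211 and 9565 to 9900. Dlx2 and Dlx1, read above as a check of the labels, are part of these sums. Their means were 3.36 and 209 on KO maxillary arrays and 422 and 711 on WT maxillary set 2 arrays. Of 9 arch epithelium markers 0 were called on their brightest probe set, with sums of 2570 to 2660 and 2288 to 2350. Of the other Krt8 probe sets, the one at 0.43 passed (adjusted p = 0.0235, limma) and the one at 0.50 did not. When single arrays were left out, calls were lost for Nefl (KO maxillary replicate 1 or 2 or WT maxillary set 2 replicate 2, highest adjusted p 0.0953 in limma), Neurog1 (KO maxillary replicate 2 or 3 or WT maxillary set 2 replicate 1 or 3, 0.201), Eya1 (KO maxillary replicate 1 or 3 or any of set 2, 0.172) and Prrx1 (KO maxillary replicate 1 or 3 or set 2 replicate 1 or 3, 0.125). The Msx2 call was lost without 11 of the 15 arrays (highest adjusted p 0.211, limma), among them all 6 of the compared groups. Nefl, Eya1, Prrx1 and Msx2 also lost their calls without intensity trend, Eya1, Prrx1 and Msx2 without the filter, Eya1 with arrays as deposited or shifted to a common median, and Msx2 with a larger pseudocount, array weights or the replicate block. Other probe sets of Nefl, Neurog1, Eya1, Prrx1 and Msx2 did not pass, and 1 of the 2 others of Tfap2a did. The part of any of these tissues in the Zic signals was not tested.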

How the data were processed

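RNA of 15 samples was measured on Affymetrix mouse arrays, 3 per group. The authors deposited 1 linear intensity value per probe set. How the scans were summarised and corrected for background is not given in the sources used here. A trimmed mean of 150.0 on all arrays shows that they had been scaled before deposition.

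Signals were converted to log2(signal + 32). The array medians on that scale differed by 0.159, over the limit of 0.1, so arrays were quantile normalized. Of 45101 probe sets 64 were controls, and 31643 lay above the 40th percentile of the array on at least 3 arrays and were tested. Symbols came from the platform annotation, which gave 1 symbol for 34945 probe sets, several for 932 and none for 9160. A gene was represented by its brightest kept probe set with 1 symbol. The Zic positions and promoters were matched to RefSeq by symbol, and the probe sets of genes beside them by Entrez gene number. Promoter sequences are those of RefSeq, build GRCm38.p6.

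One limma 3.58.1 model in R 4.3.3 gave a mean per group over all 15 arrays, with intensity trend, two-sided p values and Benjamini-Hochberg adjustment over all tested probe sets, called at an adjusted p under 0.05. The number of arrays limits the precision. The code was tested on simulated data. Probe sets that failed the filter were read from a fit without it and not called.

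The members and lists were chosen with earlier results of these data known. The rule for named genes took all probe sets of the Zic genes, up to 4 called genes per list, genes beside the Zic pairs, the genes most like each Zic gene, and Dlx1, Dlx2, Dlx5 and Dlx6 as a check. Other listed genes were named after their values were seen. Arrays with the same replicate number had residual correlations of -0.10 to 0.08, so equal numbers were not treated as pairs. Alternatives were other scalings, pseudocounts and filters, a replicate block, other variance models, array weights, other controls and leaving out each array.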

Additional observations from a re-analysis of the deposited data

How the results depend on the processing

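In the comparisons without KO maxillary that were fitted as tests the 5 Zic probe sets gave 371 values under the alternatives, of which 0 were called and 31, none of them called, had another sign than the value reported. These were repeated fits of the same arrays for probe sets below the array median in those groups, so nothing is read from the count. In KO maxillary against WT maxillary set 2, or set 1 as an alternative control, 127 of 127 values of these 5 probe sets were above 0. The choice of the genes used this contrast, so that sign was largely fixed in advance and is no support. The pseudocount moved the values most, to between 1.39 and 2.03 with 8 added to the signal. With the larger pseudocount tried they lay between 0.24 and 0.66. Counts of called probe sets over the whole array moved too. Without an intensity trend they were 452 in place of 841 for Dlx5/6 mutant mandibular minus WT mandibular, 125 in place of 188 for Dlx5/6 mutant mandibular minus WT maxillary set 1, 172 in place of 289 for KO maxillary minus WT maxillary set 2, and 1634 in place of 2686 for WT maxillary set 2 minus set 1. With the WT maxillary set of the other array set as control they were 3310 for KO maxillary and 3318 in place of 835 for the WT mandibular branch. The causes were not tested. Leaving out single arrays gave 502 to 844, 121 to 213, 176 to 312 and 1774 to 2966 for the first 4 comparisons, in that order, and 609 to 827 for WT mandibular minus WT maxillary set 1. Changes over 1.5 times came without Dlx5/6 mutant mandibular replicate 2 (502 and 121) or 3 (520), without KO maxillary replicate 2 (189), without WT maxillary set 2 replicate 1 (176) or 3 (181) in the KO maxillary comparison, and without WT maxillary set 2 replicate 2 (1774) in that of the WT sets. Shifting arrays to a common median changed the split of higher and lower calls to 90 and 185 from 147 and 142 for KO maxillary minus WT maxillary set 2, to 455 and 350 from 356 and 479 for WT mandibular minus WT maxillary set 1, and to 95 and 114 from 64 and 124 for Dlx5/6 mutant mandibular minus WT maxillary set 1.

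With the replicate number as a block, which the residuals did not bear out as pairing, the counts were 779 for Dlx5/6 mutant mandibular minus WT mandibular and 260 for KO maxillary minus WT maxillary set 2. Under the filter at the 60th percentile some Zic probe sets were no longer tested. Outside the KO maxillary branch all Zic signals lay below the array median, and small differences between those groups may have been missed.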
